A study of Mus musculus with 12 samples.

Results

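Colony stimulating factors are secreted proteins that direct the production, survival and activation of myeloid cells. The set described here holds the 3 ligand genes Csf1, Csf2 and Csf3 and the 4 receptor chain genes Csf1r, Csf2ra, Csf2rb and Csf3r. The 7 genes were chosen by symbol and not by a rule on measured values, although earlier results of these data were known. All 7 were found once in each deposited table, out of 24421 genes. They were followed through 12 mouse mammary tumours and through the classes of cells within them.

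The data are single-cell RNA counts from a droplet method that tags the 3' end of each transcript with a unique molecular identifier (UMI), so that a UMI stands for 1 captured RNA molecule. All 12 tumours arose in mMTV-Cre/HER2 Crainbow mice on the FVBN background, were untreated, and were taken at 15 to 21 weeks of age according to the sample descriptions. In this model the mouse mammary tumour virus promoter drives Cre recombinase mainly in mammary epithelium, and Cre switches on a form of the human receptor HER2. By label, 5 tumours carried p95 HER2, a truncated receptor, and 3 carried d16 HER2, a splice form that lacks an exon, and these 8 came from nulliparous mice. The other 4 came from multiparous mice, and their labels do not name the form of HER2. By phenotype, 7 tumours were labelled metaplastic/invasive (all 5 p95 tumours and d16 tumours 2 and 3), 3 solid nodular (multiparous tumours 2 and 4 with d16 tumour 1) and 2 mixed (multiparous tumours 1 and 3). Every metaplastic tumour was nulliparous. No solid nodular tumour was labelled p95, although the form is not named for multiparous tumours 2 and 4. Phenotype, parity and form of HER2 therefore cannot be fully told apart. The labels do not say that each tumour came from a separate animal. If some did not, the p-values measure only the spread between these samples.

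Csf1, also called M-CSF, and its receptor Csf1r, a tyrosine kinase, keep macrophages and monocytes alive and growing. Csf2, or GM-CSF, acts through a specific alpha chain, Csf2ra, and a signalling beta chain, Csf2rb, which the receptors for interleukins encoded by Il3 and Il5 also use. Csf3, or G-CSF, acts through Csf3r and drives the production and release of neutrophils. In mammary tissue Csf1 is known for recruiting the macrophages that take part in duct growth and in tumour spread. The ligands are textbook targets of inflammatory transcription factors such as NF-kappa B, and the receptor genes are textbook targets of the myeloid factor PU.1, encoded by Spi1.

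Promoter sequence was read for the genes that a RefSeq table of build GRCm38.p6 holds, which covered 5 of the 8 genes looked for, namely Csf1, Csf2, Csf2ra, Csf3r and the beta chain's near relative Csf2rb2. Csf3, Csf1r and Csf2rb were not matched. The 4 stretches below are shown because ligands and receptor chains were made by different cells in these tumours, and they give the letters next to each gene's start in the RefSeq table, from which all distances are counted. All run 5' to 3' on the gene's own strand, and capitals mark a match to a motif. They are Csf1 at chr3:107760570-107760669 (minus strand, 200 to 101 bases before the start), Csf2 at chr11:54249900-54249999 (minus, the last 100 bases before the start), Csf2ra at chr19:61228419-61228518 (minus, the last 100 bases) and Csf3r at chr4:126024561-126024590 (plus, 98 to 69 bases before the start). In the GENCODE annotation Csf3r starts 109 bases and Csf2ra 11 bases further upstream, so the whole Csf3r stretch and the last 11 bases of the Csf2ra stretch lie inside the GENCODE gene.
Csf1: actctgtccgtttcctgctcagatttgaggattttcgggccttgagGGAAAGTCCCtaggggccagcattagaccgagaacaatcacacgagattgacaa
Csf2: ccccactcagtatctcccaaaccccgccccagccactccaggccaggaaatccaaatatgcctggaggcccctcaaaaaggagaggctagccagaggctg
Csf2ra: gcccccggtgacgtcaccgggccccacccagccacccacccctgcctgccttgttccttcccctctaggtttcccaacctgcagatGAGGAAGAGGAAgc
Csf3r: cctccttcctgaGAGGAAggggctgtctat

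The capitals in Csf1 mark a match to the NF-kappa B consensus on the opposite strand, 154 bases before the start. In Csf2ra they mark 2 adjoining copies of the PU.1 core GAGGAA, at 14 and 8 bases before the RefSeq start, and in Csf3r 1 copy at 86 bases before the RefSeq start, inside the GENCODE gene. The search covered 4 motifs on both strands of each 300-base promoter. The NF-kappa B consensus is held by 8.46% of the 32851 promoters in the table, the AP-1 site TGANTCA by 7.81%, GAGGAA by 28.3% and the cytokine element GATTCCAC by 0.645%. Csf3r also matched the NF-kappa B consensus at 129 bases before the start, and Csf2rb2 matched GAGGAA on the opposite strand at 167 bases before and 30 bases after it. The Csf2 stretch is printed with no capitals because none of the 4 motifs was in its 300-base window. That window starts from a RefSeq start 232 bases upstream of the one in the GENCODE annotation, and no match says only that these letters are not in this window. A match is a description of letters and no evidence of binding.

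Total UMIs per tumour ran from 140348 in p95 tumour 1 (104893 in kept cells) to 4394398 in d16 tumour 3. After cells with fewer than 200 detected genes were removed, 7366 of 8486 barcodes were kept, with a median of 449 (d16 tumour 1) to 4536 (multiparous tumour 2) UMIs per kept cell. No pair of tumours shared more than 3 barcodes. Table layouts were of 2 kinds, with gene names intact in 4 tables and 27 names turned into dates in each of the other 8, and results that bear on it are given within layouts. A layout is only a property of the deposited tables. No row named human ERBB2 or a fluorescent reporter, so the labelled form of HER2 was not checked.

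Cells were grouped by clustering that left out the 7 genes, so that their levels played no part in the grouping. Named by fixed markers, 3820 cells (51.9%) were epithelial-like, 966 macrophage-like, 773 fibroblast-like, 448 T and NK-like, 312 neutrophil-like, 211 dendritic-like, 154 pericyte-like and 109 endothelial-like. A cluster of 550 cells led by Mmp13, Crabp1 and Mmp10 and one of 23 cells led by Ccr9, Atp6v0d2 and Klk1 stayed unnamed. The Mmp13 cluster scored highest for fibroblast markers (9 of 11 detected), and the Ccr9 cluster for dendritic markers (4 of 9). With finer clustering (Leiden resolution 2), 138 cells led by Mmp13, Mmp9 and Mmp10 stayed unnamed. The dendritic-like cells were led by Ccl17, Ccl22 and Ccr7. The names were rebuilt from the counts, since no annotation by the study was used here.

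The ligands came mainly from epithelial and stromal cells, and the receptor chains mainly from myeloid cells. Fibroblast-like cells held 55.2% of all 9665 Csf1 UMIs, and epithelial-like cells held 90.5% of the 3296 Csf3 UMIs. The 1420 Csf2 UMIs were split between epithelial-like cells (48.1%) and fibroblast-like cells (37.8%). At resolution 2, where fewer cells stayed unnamed, fibroblast-like cells held 64.6% of Csf1 and 43.7% of Csf2 UMIs. Macrophage-like cells held 75.8% of 5086 Csf1r, 50.6% of 2052 Csf2ra and 52.3% of 6167 Csf2rb UMIs. Neutrophil-like cells held 69.1% of the 388 Csf3r UMIs. These levels by class are a description, with no test.

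**Figure D1:**
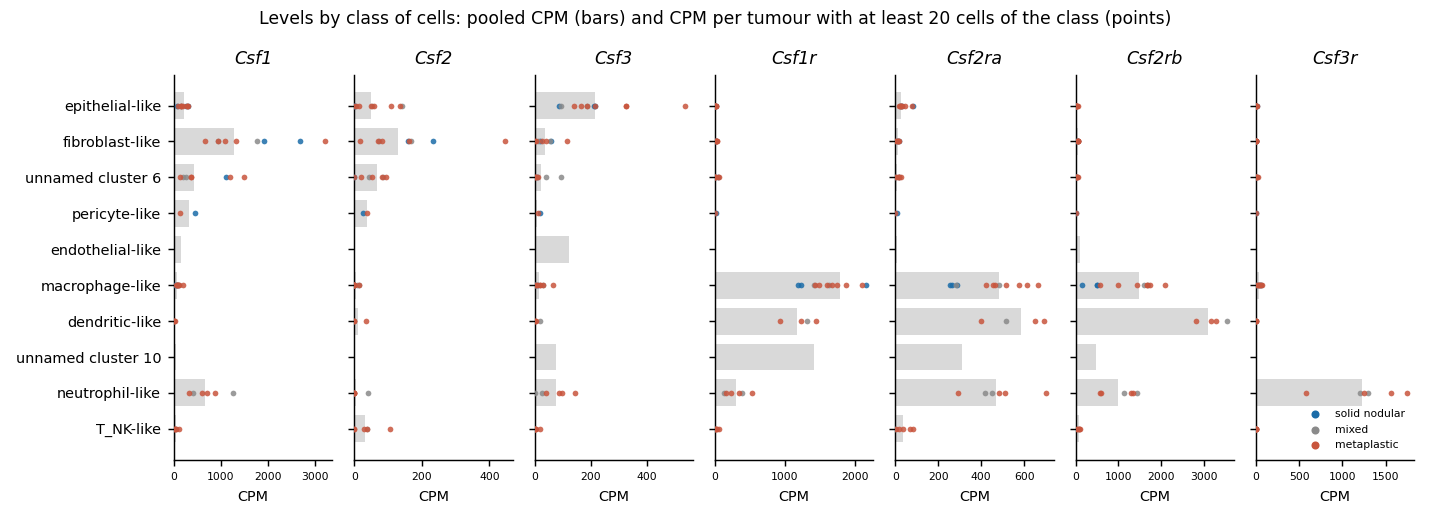
Level of each gene by class of cells, in CPM (counts per 1000000 UMIs) on linear axes, with grey bars for the level pooled over tumours and 1 point per tumour with at least 20 cells of the class, coloured by phenotype. Unnamed cluster 6 is the Mmp13 cluster and unnamed cluster 10 the Ccr9 cluster; Csf1, Csf2 and Csf3 peak in fibroblast-like or epithelial-like cells, and the receptor chains in macrophage-like, dendritic-like or neutrophil-like cells.

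Csf1 (chromosome 3, 107741048 to 107760469, minus strand, gene coordinates here and below from the GENCODE annotation of GRCm38) was highest in fibroblast-like cells. Levels are in CPM, and within a class CPM is relative to all UMIs of the same cells. In the 9 tumours with at least 20 fibroblast-like cells, Csf1 averaged 1613 ± 862 CPM (SD), and the lowest of them, p95 tumour 5 at 664 CPM, still lay above the highest epithelial-like value. In epithelial-like cells Csf1 averaged 198 ± 81.2 CPM (SD, n = 12), between 76.4 and 305 CPM. Neutrophil-like cells, at 696 ± 342 CPM (SD, n = 6), and the unnamed Mmp13 cluster, at 636 ± 535 CPM (SD, n = 8), lay between the 2 classes and overlapped the fibroblast-like range. A Csf1 UMI was found in 74.8% of fibroblast-like cells (exact Clopper-Pearson 95% interval 71.6% to 77.8%) and in 9.21% of macrophage-like cells (7.46% to 11.2%). Classes differ in depth, with a median of 4700 UMIs per fibroblast-like cell against 1864 per macrophage-like cell. When each cell was thinned to 500 UMIs, the shares were 35.3% of 764 fibroblast-like and 3.20% of 906 macrophage-like cells, with 9 and 60 shallower cells left out. Such intervals cover counting error only, since cells of 1 tumour are not independent.

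The fibroblast-like cells were of 2 kinds with different Csf1 levels. The cluster led by Dpt, Efemp1 and Ptx3 (326 cells) held 2565 CPM of Csf1, and the cluster led by C1qtnf3, Actg2 and Tagln (447 cells) held 745 CPM. In tumours with at least 20 cells of the cluster, the Dpt cluster ranged from 1591 to 3299 CPM and the C1qtnf3 cluster from 384 to 2022 CPM, with 7 tumours in each. Multiparous tumour 2 was the highest for both. The Dpt cluster was the higher of the pair in each of the 7 tumours where both had at least 20 cells, with d16 tumour 3 at 3089 against 745 CPM and multiparous tumour 1 at 2697 against 644 CPM. Clustering used the rest of these cells' genes, so the difference is a description.

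Csf3 (chromosome 11, 98701263 to 98703629, plus strand) was an epithelial gene in these tumours. Epithelial-like cells averaged 224 ± 124 CPM (SD, n = 12), from 86.6 CPM in d16 tumour 1 to 537 CPM in p95 tumour 4. The next class with several tumours, neutrophil-like cells, averaged 66.1 ± 53.4 CPM (SD, n = 6), and its highest tumour, at 146 CPM, lay inside the epithelial-like range. A UMI of Csf3 was found in 21.3% of epithelial-like cells (20.0% to 22.6%), against 2.28% of macrophage-like cells (1.43% to 3.43%). Among epithelial-like clusters, Csf3 was highest in the one led by Wnt5b, Spp1 and Col9a2, at 413 CPM with a UMI in 36.2% of 607 cells. The milk-protein cluster led by Csn1s2a, Csn2 and Csn1s2b followed at 379 CPM. The ranges over tumours of those 2 clusters overlapped, at 219 to 608 CPM (n = 8) and 148 to 954 CPM (n = 5). Endothelial-like cells held 123 CPM over all tumours, from only 32 UMIs in 109 cells, 24 of them in p95 tumour 4, and 61.3 CPM with predicted doublets removed.

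Csf2 (chromosome 11, 54247271 to 54249667, minus strand) had 2 main sources, each narrow. In fibroblast-like cells it averaged 157 ± 127 CPM (SD, n = 9) and in epithelial-like cells 47.6 ± 54.4 CPM (SD, n = 12), with overlapping ranges of 16.0 to 447 CPM and 0 to 142 CPM. Of the 683 epithelial-like UMIs, 550 lay in 1 cluster of 395 cells, led by Stmn2, Msln and Ssu2, where Csf2 stood at 266 CPM. Of these 550, 106 came from 7 cells of p95 tumour 4. A UMI was found in 28.9% of that cluster's cells, against 4.42% of all epithelial-like cells. On the stromal side the Dpt cluster held 340 CPM and the C1qtnf3 cluster 40.8 CPM. The stromal level rested partly on p95 tumour 3, whose Dpt cluster stood at 1228 CPM, the highest of 7 tumours. Macrophage-like cells held 4.63 CPM of Csf2, from 10 UMIs in 966 cells.

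**Figure D2:**
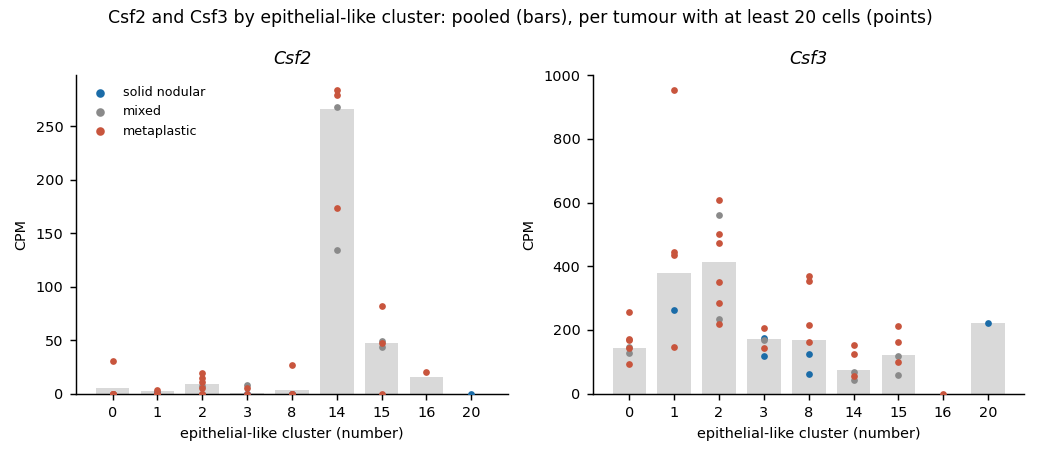
Level of Csf2 and Csf3 in each epithelial-like cluster, in CPM, with grey bars for the level pooled over tumours and 1 point per tumour with at least 20 cells of the cluster. Csf2 is concentrated in cluster 14, led by Stmn2 and Msln (266 CPM), and Csf3 peaks in cluster 2, led by Wnt5b (413 CPM), and in the milk-protein cluster 1 (379 CPM).

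Csf1r (chromosome 18, 61100598 to 61132149, plus strand) was highest in macrophage-like cells, at 1626 ± 306 CPM (SD, n = 12), and in dendritic-like cells, at 1231 ± 219 CPM (SD, n = 4). Those ranges, 1193 to 2154 CPM and 929 to 1443 CPM, overlapped. Neutrophil-like cells were lower than both, at 296 ± 156 CPM (SD, n = 6) and at most 534 CPM. A UMI of Csf1r was present in 83.6% of macrophage-like cells (81.2% to 85.9%) and in 1.15% of epithelial-like cells (0.84% to 1.54%), a class that should lack the gene and that was no shallower (median 2136 UMIs per cell). The unnamed Ccr9 and Atp6v0d2 cluster also carried Csf1r, at 1415 CPM over 23 cells. The leading genes of this cluster include Acp5 and Ctsk, known from osteoclasts, beside Ccr9, Klk1 and Clec12a, and its best marker list was dendritic. At resolution 2 a cluster of 12 cells led by Ccr9, Klk1 and Ly6c2 was named dendritic-like. In the 23-cell cluster a Csf1r UMI was found in 2 of 8 cells of d16 tumour 3. It was found in 2 of 4 cells of p95 tumour 3, all 7 of p95 tumour 5 and none of the single cells of other tumours.

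Both chains of the GM-CSF receptor were found in the myeloid classes. Csf2rb (chromosome 15, 78325752 to 78353847, plus strand) was highest in dendritic-like cells, at 3191 ± 300 CPM (SD, n = 4), and all 4 of those tumours, from 2805 to 3523 CPM, lay above every macrophage-like value. Macrophage-like cells averaged 1216 ± 639 CPM (SD, n = 12) and neutrophil-like cells 1056 ± 389 CPM (SD, n = 6), which overlapped. Csf2ra (chromosome 19, 61223957 to 61228429, minus strand) did not separate these classes. It averaged 563 ± 133 CPM in dendritic-like (n = 4), 475 ± 135 CPM in neutrophil-like (n = 6) and 440 ± 141 CPM in macrophage-like cells (n = 12, all SD). Both chains were detected in the same cell in 135 of 211 dendritic-like cells, with Csf2ra found in 136 and Csf2rb in 202 of them, and 130 joint cells would arise if detection of each were independent. In macrophage-like cells the joint count was 382 of 966 against 310 by that reckoning, and in neutrophil-like cells 30 of 312 against 24.8. The reckoning takes the same detection rate for every cell of a class. Depth differed between tumours and both chains differed between the macrophage-like clusters, and the part of that in the joint counts was not tested. A UMI of Csf2rb was present in 95.7% of dendritic-like cells (92.1% to 98.0%) and 2.83% of epithelial-like cells (2.32% to 3.40%). Csf2ra was more widespread, with 18.2% of its UMIs in epithelial-like cells at 26.9 CPM and a UMI in 8.17% of those cells (7.32% to 9.08%).

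Csf3r (chromosome 4, 126024550 to 126044440, plus strand) was highest in neutrophil-like cells, whose lowest tumour lay above every macrophage-like value. There it averaged 1272 ± 399 CPM (SD, n = 6), from 578 CPM in p95 tumour 2 to 1747 CPM in d16 tumour 2. In macrophage-like cells it averaged 33.9 ± 21.7 CPM (SD, n = 12) and reached at most 67.5 CPM. A UMI was found in 47.8% of 312 neutrophil-like cells (42.1% to 53.5%), although these were shallow cells with a median of 644.5 UMIs. The share was 0.45% in epithelial-like cells (0.26% to 0.71%). None was found among 448 T and NK-like cells, which by 3 counts of that total allows a share of cells with a UMI of up to 0.67%.

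A further ligand and a further receptor chain, which are not members, belong beside the set. Il34, a second ligand of Csf1r, gave 700 UMIs, of which epithelial-like cells held 37.3%, the unnamed Mmp13 cluster 31.7% and fibroblast-like cells 22.1%. The order depended on the clustering. At resolution 2 fibroblast-like cells held 47% of Il34 UMIs, epithelial-like cells 37.1% and unnamed cells 6.86%. The level of Il34 was highest in pericyte-like cells, at 134 CPM, and no Il34 UMI was found in the 966 macrophage-like cells. Csf2rb2, a mouse-specific copy of Csf2rb that serves the Il3 product, lies beside it on chromosome 15 (78282507 to 78305721, minus strand). It gave 2715 UMIs with a like distribution, 48.0% in macrophage-like and 32.2% in dendritic-like cells. Of all 50-base windows of the 4900-base Csf2rb transcript, 18.4% also occur in Csf2rb2, so reads could be split between the copies. Of the 451 windows in the last 500 bases, which a 3' method reads most, 0% did.

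Levels in whole tumours were compared by phenotype, the question being whether solid nodular and metaplastic tumours differ in these genes. All 4 receptor chains had lower fitted levels in the solid nodular tumours, with Csf2rb the most distant, while Csf1 and Csf3 were close to equal. None of the 7 passed an adjusted p of 0.05 in edgeR's quasi-likelihood test with Benjamini-Hochberg adjustment over 11394 genes. In that comparison no gene passed (0%), although 2229 had an unadjusted p under 0.05 and DESeq2 called 578 genes. In a whole tumour, fewer cells of a type and less RNA per cell cannot be told apart.

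**Figure D3:**
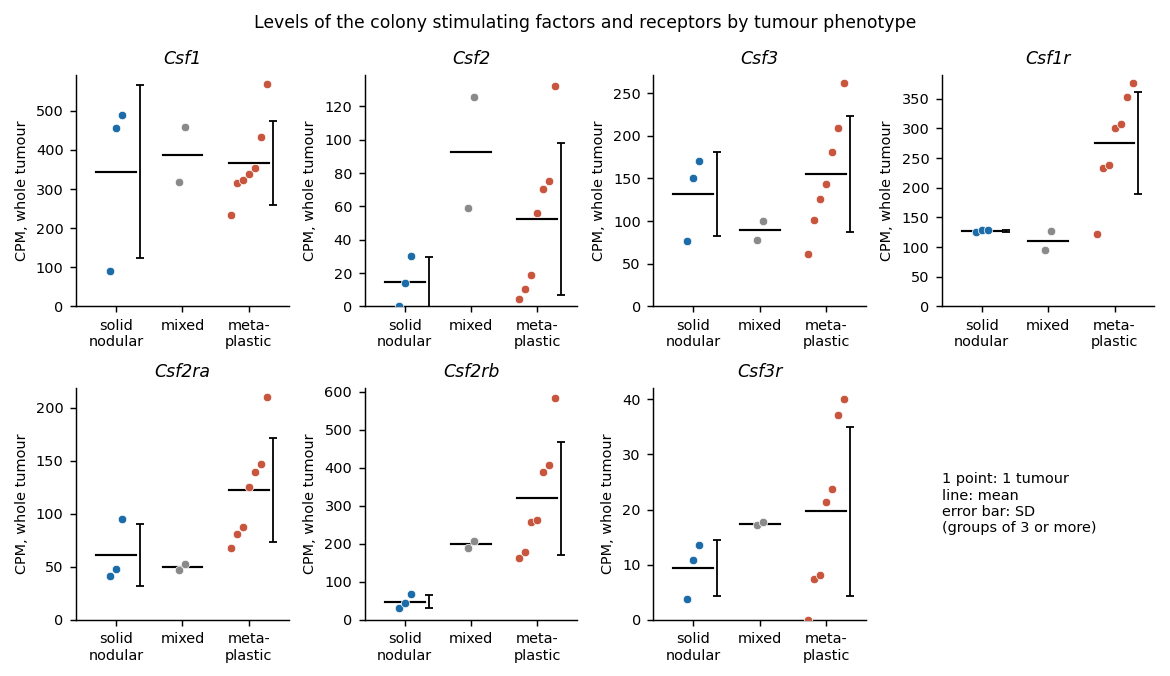
Whole-tumour level of each gene by phenotype, in CPM on linear axes, with 1 point per tumour, a line at each group's mean and an error bar of 1 SD for groups of 3 or more. Csf2rb is lower in all 3 solid nodular tumours (31.5 to 66.9 CPM) than in all 7 metaplastic tumours (162 to 582 CPM), and Csf1 overlaps between them.

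Csf2rb stood at 31.5, 43.8 and 66.9 CPM in the solid nodular samples (d16 tumour 1, then multiparous tumours 2 and 4). The metaplastic p95 tumours 1 to 5 held 257, 389, 177, 263 and 582 CPM, and d16 tumours 2 and 3 held 162 and 406 CPM. Every solid nodular tumour was below every metaplastic one, and the 2 mixed tumours, at 208 and 189 CPM, lay within the metaplastic range. The fitted difference was -2.82 ± 0.48 (log2, SE), with an edgeR adjusted p of 0.0612. DESeq2 gave an adjusted p of 5.04e-07, and edgeR with table layout as a covariate gave 0.0150. It also passed edgeR without d16 tumour 2 (0.0195) and with no low-count filter (0.0491). With the mixed tumours counted as solid nodular the difference was -1.58, with an adjusted p of 0.253. Within the layout with intact names, the single solid nodular tumour at 31.5 CPM was below 3 metaplastic ones at 162 to 389 CPM. In the other layout, 2 tumours at 43.8 and 66.9 CPM were below 4 at 177 to 582 CPM.

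Csf1r was 126, 128 and 128 CPM in the solid nodular tumours. In the metaplastic tumours it was 353, 300.2, 123, 238 and 377 CPM (p95 1 to 5) and 233 and 308 CPM (d16 2 and 3). The solid nodular values were tightly grouped, and 1 metaplastic tumour, p95 tumour 3, lay just below them. On the TMM-scaled values of the fit the groups did not overlap, so that the separation depends on the scaling. The fitted difference was -1.21 ± 0.31 (log2, SE), with an edgeR adjusted p of 0.0952. DESeq2 gave 0.00931 and the layout covariate 0.0378, which would both call it.

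Csf2ra was 94.5, 41.1 and 47.5 CPM in the solid nodular tumours and 67.5 to 210 CPM in the metaplastic ones, with a median of 125 CPM. The groups overlapped through d16 tumour 1. Its difference was -1.18 ± 0.35 (log2, SE) with an edgeR adjusted p of 0.125, against 0.0359 with DESeq2 and 0.0446 with the layout covariate. Csf3r, the least abundant of the set, ranged from 3.71 to 13.5 CPM in solid nodular and from 0 to 40.1 CPM in metaplastic tumours. The fitted difference of -1.66 ± 0.75 (log2, SE) had an adjusted p of 0.250. Only 28 and 269 UMIs of Csf3r lay behind the 2 groups.

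Of the ligands, Csf2 was 0, 14.1 and 30.2 CPM in the solid nodular tumours. It was 4.13 to 132 CPM in the metaplastic tumours, with a median of 55.8 CPM. The groups overlapped because p95 tumours 1 and 2 and d16 tumour 2, at 19.1, 10.3 and 4.13 CPM, were as low as the solid nodular ones. Those are the metaplastic tumours with intact names, and those of the other layout held 55.8 to 132 CPM. With intact names d16 tumour 1 held 0, where 3 counts would be 13.5 CPM. In the other layout, 14.1 and 30.2 CPM lay below the metaplastic values. The phenotype difference of -1.81 ± 0.95 (log2, SE) had an edgeR adjusted p of 0.311, and 0.0286 with the layout covariate, at -2.16. Counting the mixed tumours, which held 58.8 and 126 CPM, as solid nodular moved it to -0.24. Csf3 averaged 132 ± 49.3 CPM in solid nodular (SD, n = 3) and 155 ± 67.9 CPM in metaplastic tumours (SD, n = 7), with an adjusted p of 0.771. Csf1 averaged 345 ± 221 CPM and 367 ± 107 CPM in the same groups, with an adjusted p of 0.896. The spread of Csf1 in the solid nodular group came from d16 tumour 1 at 90.0 CPM against 490 and 455 CPM, and without that tumour the fitted difference changed from -0.16 to 0.30.

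Of the set, 2 genes, Csf2rb and Csf1r, did not overlap between the phenotypes on the fitted scale, where 7.14% of all genes tested did not. The median difference of the 7 was -1.21 (log2), against -0.017 over all 11394 genes. Markers of several cell types moved with phenotype in these tumours. All 10 macrophage, 6 of 9 dendritic and 7 of 8 neutrophil markers had a lower median in the solid nodular group, the macrophage list with a summed level of 1356 to 2925 CPM against 706 to 5939 CPM. Summed dendritic markers ran from 36 to 418 CPM against 146 to 685 CPM, and neutrophil markers from 86.8 to 361 CPM against 325 to 2695 CPM. In each of the dendritic and neutrophil lists 1 marker was at 0 in every solid nodular tumour. Of fibroblast markers 10 of 11 were lower, with summed levels of 437 to 9158 CPM against 2584 to 23760 CPM, and of basal markers 8 of 8, at 94.5 to 310 CPM against 210 to 13306 CPM. Macrophage-like cells made up 9.58 ± 1.74% of kept cells in solid nodular (SD, n = 3) and 15.5 ± 5.05% in metaplastic tumours (SD, n = 7). The part these markers and shares play in the whole-tumour differences was not tested, and levels within classes are given next.

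Within macrophage-like cells, Csf2rb and Csf2ra were again lower in solid nodular tumours while Csf1r did not separate the groups. Csf2rb was 153, 496 and 490 CPM in the solid nodular tumours (d16 1, multiparous 2 and 4). The first value rests on few counts, since the 33 macrophage-like cells of d16 tumour 1 held 19607 UMIs of all genes. In p95 tumours 1 to 5 Csf2rb was 574, 1438, 1668, 1678 and 1745 CPM, and in d16 tumours 2 and 3 it was 992 and 2078 CPM. The groups did not overlap, and the mixed tumours, at 1681 and 1601 CPM, lay with the metaplastic ones. The difference of -1.88 ± 0.40 (log2, SE) had an edgeR adjusted p of 0.0873 over 4001 genes. It had an adjusted p of 0.00106 with DESeq2, 0.00188 with no low-count filter and 0.102 without the 2 shallowest tumours, p95 tumour 1 and d16 tumour 1. In this comparison edgeR called no gene (0%), with 338 at an unadjusted p under 0.05, and DESeq2 called 20.

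**Figure D4:**
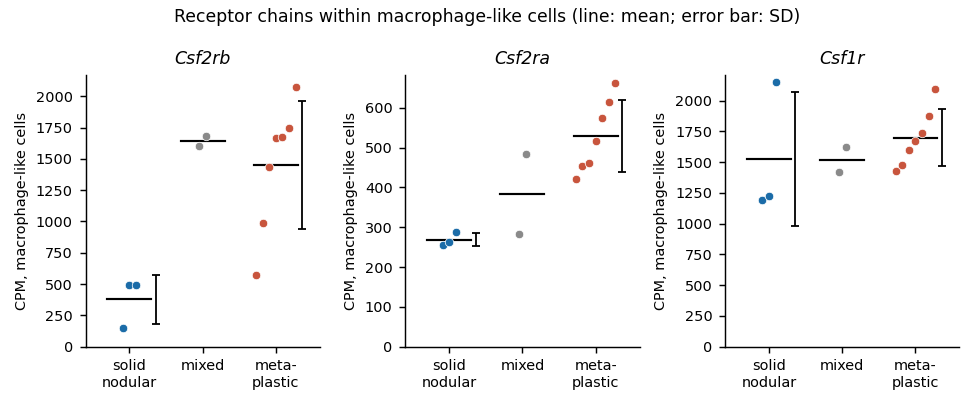
Level of Csf2rb, Csf2ra and Csf1r within macrophage-like cells by phenotype, in CPM, with 1 point per tumour, a line at the mean and an error bar of 1 SD for groups of 3 or more. Csf2rb is 153 to 496 CPM in solid nodular and 574 to 2078 CPM in metaplastic tumours, whereas the Csf1r points overlap.

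Csf2ra was 255, 264 and 288 CPM in the macrophage-like cells of the solid nodular tumours and 422 to 663 CPM in those of the metaplastic tumours. Those ranges did not overlap either, and the mixed tumours held 484 and 283 CPM. The difference of -1.02 ± 0.30 (log2, SE) had an adjusted p of 0.243. Csf1r was 1224, 2154 and 1193 CPM against 1428 to 2096 CPM, with a difference of -0.20 ± 0.29 (log2, SE) and an adjusted p of 0.916. Of all genes tested in these cells, 3.42% had groups that did not overlap. Within table layouts Csf2rb was 153 CPM against 574 to 1438 CPM with intact names and 490 and 496 CPM against 1668 to 2078 CPM in the other. The 153 CPM of Csf2rb and the 255 CPM of Csf2ra are both from d16 tumour 1 and rest on few counts.

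The macrophage-like class held 2 clusters, one of 864 cells led by Apoe, Lyz2 and C1qb and one of 102 cells led by Retnla, Ccl8 and Cd209f. In the first, Csf2rb stood at 1600 CPM and Csf2ra at 507 CPM, and in the second, at 247 and 178 CPM. Csf1r was alike in the pair, at 1765 and 2001 CPM. Because the second cluster has little Csf2rb, the comparison was repeated in the first cluster alone, an alternative chosen after seeing the data. Csf2rb was then 153, 541 and 493 CPM in solid nodular tumours and 574 to 2224 CPM in metaplastic tumours, a difference of -1.94 with an edgeR adjusted p of 0.0539. Over the whole macrophage-like class, macrophage markers overlapped, summing to 18807 to 30040 CPM in solid nodular and 14971 to 28615 CPM in metaplastic tumours. Dendritic markers in that class summed to 153 to 371 CPM against 307 to 1101 CPM, with 4 of 9 at 0 in all 3 solid nodular tumours and 1 of 9 in all 7 metaplastic tumours. Neutrophil markers summed to 255 to 1076 CPM against 472 to 1287 CPM, with 2 of 8 and 0 of 8 at 0 in all tumours. Dendritic-like and neutrophil-like cells also carry Csf2rb, these differences moved with the result, and their part in it was not tested.

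Within epithelial-like cells the ligand with the widest gap between phenotypes was Csf2. Only 4 Csf2 UMIs were found in 1055 epithelial-like cells of the 3 solid nodular tumours, all 4 in multiparous tumour 2, which is 1.0 CPM (exact Poisson 95% interval 0.273 to 2.56 CPM, counting error only). The 7 metaplastic tumours gave 416 UMIs in 2177 cells, or 58.2 CPM (52.7 to 64.1 CPM). By tumour these were 15.5, 5.34, 57.6, 109 and 137 CPM in p95 tumours 1 to 5, 0 in d16 tumour 2 and 51.0 CPM in d16 tumour 3. One metaplastic tumour was thus as low as the solid nodular ones, and the mixed tumours, at 53.0 and 142 CPM, were high. The difference of -5.83 ± 1.64 (log2, SE) had an edgeR adjusted p of 0.106 over 9609 genes, where 0.229% of genes were called, 3 higher and 19 lower. DESeq2 gave -6.15 with an adjusted p of 0.0182, and edgeR without d16 tumour 2 gave 0.0221. Epithelial-like cells gave no Csf2 UMI in d16 tumour 1, multiparous tumour 4 or d16 tumour 2, the last with 727 such cells. In all kept cells, of which epithelial-like cells are a part, these tumours held 222220, 926805 and 1936289 UMIs. The epithelial-like cluster with the most UMIs held 112535, 579323 and 677428 of them in the same order. The part of depth in the 0 values was not tested. Within the layout with intact names, d16 tumour 1 at 0 lay beside metaplastic tumours at 0 to 15.5 CPM. In the other layout, solid nodular tumours at 0 and 1.25 CPM lay below metaplastic ones at 51.0 to 137 CPM.

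The Stmn2 and Msln cluster, which held most epithelial Csf2, was itself uneven over tumours. It had at least 20 cells in 5 tumours, p95 3 and 5, d16 3 and multiparous 1 and 3, none of them solid nodular. In those 5, Csf2 within the cluster ranged from 135 to 284 CPM. Below that number of cells, p95 tumour 4 stood at 773 CPM, from 106 UMIs in 7 of its 18 cells of the cluster. Those 7 cells gave most of the epithelial Csf2 of that tumour. The solid nodular tumours held 0, 2 and 1 cells of the cluster, so a level within it was not available for that phenotype.

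Csf1 and Csf3 in epithelial-like cells did not separate the phenotypes. Csf1 averaged 211 ± 118 CPM in solid nodular (SD, n = 3) and 205 ± 80.9 CPM in metaplastic tumours (SD, n = 7), a difference of 0.01 ± 0.45 (log2, SE) with an adjusted p of 0.997. Csf3 averaged 171 ± 73.2 CPM and 271 ± 139 CPM, a difference of -0.72 ± 0.46 (log2, SE) with an adjusted p of 0.433. None of the 3 ligands was among the 5.95% of genes whose groups did not overlap in epithelial-like cells.

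In fibroblast-like cells, 2 solid nodular and 5 metaplastic tumours had at least 20 cells. Csf1 was 2669 and 1924 CPM in multiparous tumours 2 and 4. In the metaplastic tumours it was 3204, 1086, 1323 and 664 CPM (p95 2 to 5) and 944 CPM (d16 3). Both solid nodular values lay above 4 of the 5 metaplastic ones, and p95 tumour 2, with 20 cells, was above both. The difference of 0.82 ± 0.46 (log2, SE) had an edgeR adjusted p of 0.658. Csf2 was 158 and 233 CPM against 16.0 to 447 CPM, with an adjusted p of 0.955. Neither ligand passed or stood apart, where edgeR called 0.0154% of 6490 genes and 13.4% had groups that did not overlap. The shares of the 2 fibroblast-like clusters differed between tumours, with 28 and 37 cells of the C1qtnf3 and Dpt clusters in multiparous tumour 2 against 123 and 22 in d16 tumour 3. Csf1 differs between these clusters, and the part of their mix in the class level was not tested. Neutrophil-like cells could not be compared, since no solid nodular tumour had 20 of them.

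Other genes of the pathway were read from a list of 32 and their inducers from a list of 22. In whole tumours 26 of the pathway genes were tested by phenotype and none passed in either direction. Of these, 22 had a lower fitted level in solid nodular tumours, with a median of -0.84 (log2), beside 5827 of 11394 genes lower in all. Among the pathway genes with the smallest p was Csf2rb2, at -2.37 ± 0.41 (log2, SE) with an adjusted p of 0.0612. Inpp5d, the phosphatase SHIP, stood at -1.31 ± 0.27 with an adjusted p of 0.0681, and Irf8, a factor of monocyte and dendritic cell fate, at -1.69 ± 0.39 with 0.0857. These are genes of myeloid cells, whose markers were also lower, and the part of that in these values was not tested. Of 21 inducer genes tested, none passed and 18 were lower, with a median of -0.48.

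The pathway and inducer lists were also read within classes, again with no gene passing in either list. In epithelial-like cells 15 of 21 pathway genes were lower in solid nodular tumours, with a median of -0.96 (log2), beside 4687 of 9609 genes lower in all. The clusters within the class differed between these tumours, with 209 of 243 epithelial-like cells of multiparous tumour 4 in 1 cluster and 245 of 315 of d16 tumour 1 in another, and the part of that in the values below was not tested. Socs3, a feedback inhibitor that Csf3r signalling induces, was the first of them by p at -2.04 ± 0.39 (log2, SE) with an adjusted p of 0.0581. The receptor-associated kinase Jak1 followed at -1.34 ± 0.35 with an adjusted p of 0.0975. Bcl2l1, an inhibitor of cell death, stood at -0.99 ± 0.33 with an adjusted p of 0.140. Of 20 inducer genes tested there, 17 were lower, with a median of -0.62. Among these Jun, a subunit of AP-1, stood at -1.53 ± 0.33 with an adjusted p of 0.0659, and Nfkbia, a target and inhibitor of NF-kappa B, at -1.46 ± 0.37 with 0.0930. The last 2 were named after their values were seen. In macrophage-like cells 15 of 22 pathway genes were lower (median -0.34), but 13 of 18 inducers were higher (median 0.28). In fibroblast-like cells 10 of 19 pathway genes and 8 of 17 inducers were lower, with medians of -0.11 and 0.04.

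By form of HER2, the 3 d16 and 5 p95 nulliparous tumours were compared. All 7 genes had a lower fitted level in d16 tumours, with a median of -0.74 (log2), and none passed. The differences ran from -0.34 ± 0.41 (SE) for Csf1r to -1.48 ± 0.95 for Csf2, with edgeR adjusted p-values of 0.932 to 0.962. For Csf3, d16 tumours held 76.5, 125 and 102 CPM and p95 tumours 61.7 to 262 CPM, which overlapped. In this comparison edgeR called no gene (0%), with 483 of 11061 at an unadjusted p under 0.05. DESeq2 called 3 and limma voom 0, and 1.93% of genes did not overlap between the groups, none of the 7 among them. No pathway gene passed, with 18 of 26 lower, and the smallest p was that of Il34, 1.13 ± 0.40 higher in d16 with an adjusted p of 0.932. One of the 3 d16 tumours, d16 tumour 1, is both solid nodular and shallow. Without it the Csf2rb difference moved from -0.74 to -0.26.

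By parity, the 4 multiparous tumours were compared with the 8 nulliparous ones. Csf2ra was 47.0, 41.1, 52.8 and 47.5 CPM in multiparous tumours and 67.5 to 210 CPM in nulliparous tumours. Those ranges did not overlap, a property of 1.16% of the 11242 genes tested. The difference of -1.29 ± 0.27 (log2, SE) had an edgeR adjusted p of 0.111, where 0.0801% of genes were called, and DESeq2 gave 0.00102. Csf1r was 94.3, 128, 128 and 128 CPM against 123 to 377 CPM. Its difference of -1.11 ± 0.32 had an adjusted p of 0.292, and 0.0316 with DESeq2. Csf2rb was split among multiparous tumours, at 208 and 189 CPM in the mixed and 43.8 and 66.9 CPM in the solid nodular ones, and its difference of -1.19 ± 0.61 had an adjusted p of 0.724. The 3 ligands had differences of 0.32 (Csf1), 0.13 (Csf2) and -0.24 (Csf3), with adjusted p-values of 0.972 to 0.999. Of 27 pathway genes tested 25 were lower in multiparous tumours, with a median of -0.52, and none passed. The kinase Lyn, at -1.32 ± 0.29, had the smallest p, with an adjusted p of 0.151. Multiparous tumours held no metaplastic label, so parity and phenotype cannot be told apart here.

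Whole-tumour levels were set against the share of cells of the class concerned, in 4 relations over 12 tumours, with permutation tests adjusted by Benjamini-Hochberg. The whole-tumour level is summed over all kept cells, those of the class included, and these classes held most Csf1r and Csf3r UMIs. A positive relation is therefore partly built in for both receptors, and the p-values do not test a link beyond that. For Csf1r and macrophage-like cells r was 0.87 (permutation, adjusted p = 0.00148) and rho 0.86 (adjusted p = 0.00232). The tumours fell into 2 sets of 6, separated by a gap in the level of Csf1r, so these coefficients also span the gap. The lower set, with 4.39% to 11.5% macrophage-like cells, had levels of 6.57 to 7.02 on the log2(CPM + 1) scale, and the upper set, with 11.9% to 22.5%, had 7.87 to 8.56. The ranges of the share did not overlap between the sets, which were drawn from the level itself, so no test is given on them. The lower set held all 5 solid nodular and mixed tumours and p95 tumour 3.

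**Figure D5:**
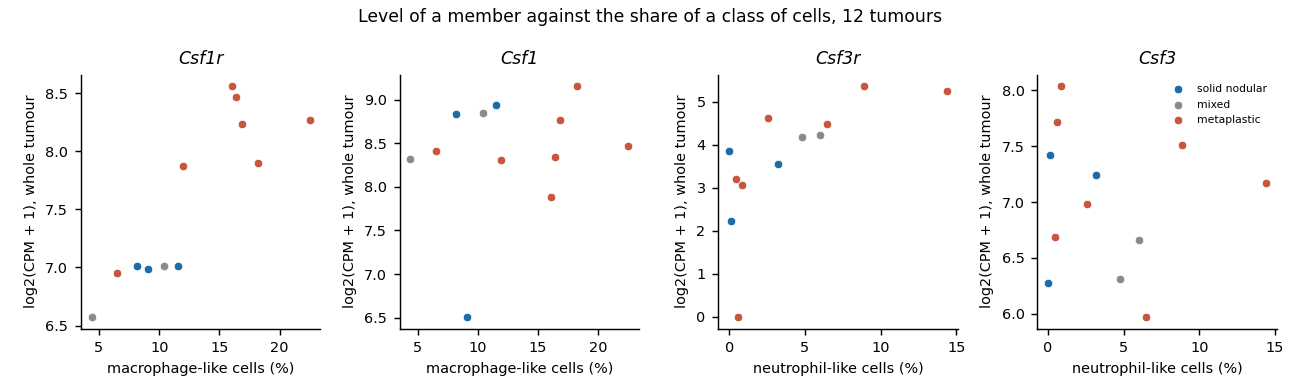
Whole-tumour level of Csf1r, Csf1, Csf3r and Csf3 on the log2(CPM + 1) scale against the share of kept cells in the macrophage-like or neutrophil-like class, with 1 point per tumour coloured by phenotype. Csf1r lies in 2 sets of 6 tumours, with r = 0.87 across both. Csf3r is higher where neutrophil-like cells are more frequent (r = 0.68), and Csf1 and Csf3 show r of 0.20 and -0.10.

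Csf3r rose with the share of neutrophil-like cells, a relation that is likewise partly built in. It gave r = 0.68 (permutation p = 0.0235, adjusted 0.0471) and rho = 0.78 (p = 0.00410, adjusted 0.00820). Without the 2 tumours farthest from the median share, p95 tumours 2 and 3, r was 0.59 (adjusted p = 0.116), and the relation did not pass the threshold. Without the 2 tumours with the fewest UMIs r was 0.84 (adjusted p = 0.00422). In the 8 tumours with date-like names r was 0.92 (exact permutation, adjusted p = 0.00119), and the other layout holds too few tumours for a value. The relations of the ligands with these cells did not pass the threshold. Csf1 against the macrophage-like share gave r = 0.20 and rho = 0.24 (permutation, adjusted p = 0.729 and 0.611), and Csf3 against the neutrophil-like share gave r = -0.10 and rho = -0.084 (adjusted p = 0.764 and 0.800). Without the 2 farthest tumours these were 0.25 and -0.55, and in the date-like layout 0.051 and -0.26.

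The genes most like each member over the 12 whole tumours, by Pearson's r of log2(CPM + 1), are given as a description. About 5155 genes were compared, and all share each tumour's cell mix and depth. Csf1 was nearest to Map2k3 (r = 0.91), Dpt (0.90), Ctnnbip1, Ogn and Cilp. Csf2 was nearest to Tnc and Efemp2 (both 0.97), Klf4, Col5a1 and Fn1, and Csf3 to G6pdx and Cdh1 (both 0.75), Usp6nl, Irf2bpl and Gab1. The receptor Csf1r was nearest to Laptm5 and Gm2a (both 0.95), Ms4a6d, Tcirg1 and Rgs10, and Csf2ra to AF251705 (0.96), Lyn, Runx3 and Ccr1. For Csf2rb these were Clec4n (0.96), Smim3, Csf2rb2 (0.95), Lgals3 and Wipf1. Csf3r was nearest to Plekhg2 (0.88), Ap1m1, Card10, Bola2 and Agpat2, at the lowest counts of the set.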

How the data were processed

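Single-cell RNA from 12 tumours was captured on a ddSEQ isolator with a 3' library kit, per the labels' protocols. The deposited tables hold UMI counts per gene and cell, with several libraries joined per tumour; the submitters' processing notes name GRCm38 and Seurat 3.0.2, and the aligner is not given in the sources used here. Gene names were made the same across tables (1949 restored; 23376 of 24421 found in GENCODE M21). A minimum of 200 detected genes per cell was set (5645 cells had at least 500), which left 104893 to 4394398 UMIs per tumour. No mitochondrial gene was listed, so that share was not used as a filter.

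Cells were clustered with Scanpy 1.11.5 (2000 variable genes without the 7 members, 30 components, Leiden resolution 1, 21 clusters) and named from markers, requiring 3 detected. Predicted doublets (289, 3.92%) were kept and removed as an alternative. CPM is counts per 1000000 of the summed total. Counts summed per tumour, or per class with at least 20 cells, were tested with edgeR 4.0.16 (quasi-likelihood, TMM, filterByExpr) in R 4.3.3. A threshold of 0.05 was used after Benjamini-Hochberg adjustment. Every log2 fold change has solid nodular, d16 or multiparous over the other group. DESeq2 1.42.0, limma 3.58.1 (voom), other size factors, no filter, doublet removal, table layout and leaving out each tumour were alternatives. Fits were tested on simulated data. Correlations used 100000 permutations, or all orders for 8 or fewer tumours, two-sided, with a pseudocount of 1.

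The members and lists were chosen with earlier results of these data known. Named genes are the 7 members, pathway genes past the threshold, up to 4 with the smallest p per comparison, and the 5 genes most like each member; a few genes that this rule picks are not reported here. The largest macrophage-like cluster alone, fibroblast-like cells with the Mmp13 cluster, leaving out the 2 shallowest tumours within classes and for parity, and correlations in metaplastic tumours were chosen after seeing the data.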

Additional observations from a re-analysis of the deposited data

Results flagged for a closer look

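Of all levels checked, 2 stood apart from the rest of their group by Dixon's criterion, in 36 groups examined. At the 95% level chance flags about 1 in 20 groups, so 2 of 36 is close to that rate. Csf1r in multiparous tumour 1, a mixed tumour, was 94.3 CPM in the whole tumour from 287 UMIs, below the other 3 multiparous tumours at 127.8 to 128.4 CPM. The gap is small in size, and it stands out because the other 3 values are so close together. Csf1 in the fibroblast-like cells of p95 tumour 2 was 3204 CPM from 118 UMIs in 20 cells, above the other 4 metaplastic tumours at 664 to 1323 CPM. Of those 20 cells, 16 were in the Dpt cluster, which carries the more Csf1 of the pair of fibroblast-like clusters.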

How the results depend on the processing

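Counts of genes past the threshold changed with the tool and the setting. DESeq2 called 578 genes by phenotype in whole tumours, 559 in epithelial-like, 20 in macrophage-like and 27 in fibroblast-like cells, 3 by form of HER2 and 157 by parity, against 0, 22, 0, 1, 0 and 9 with edgeR. With no low-count filter the 4 phenotype counts were 33, 70, 65 and 164. Table layout as a covariate gave 842 genes by phenotype and 4 by parity, and counting mixed tumours as solid nodular gave 10. Doublet removal gave 5 by parity. Without the 2 shallowest tumours there were 0 in epithelial-like cells and 4 by parity. The largest macrophage-like cluster alone gave 8, and fibroblast-like cells with the Mmp13 cluster gave 0. Leaving out 1 tumour at a time gave 0 to 324 by phenotype in whole tumours, with 324 without d16 tumour 2 and 19 without p95 tumour 4. It gave 0 to 409 in epithelial-like cells (409 without d16 tumour 2, 35 without p95 tumour 4, and 0 without any of 7 other tumours), 0 to 2 in macrophage-like cells, 0 to 9 in fibroblast-like cells, 0 to 2 by form of HER2 and 3 to 20 by parity (20 without d16 tumour 1). The cause was not tested.

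Of the members' fold changes under alternatives, 453 kept their sign and side of the threshold, 15 moved past it and 19 reversed, all 19 of differences that had not passed. Csf1 by phenotype reversed in whole tumours without the 2 shallowest (0.25) and over single tumours left out (-0.56 to 0.30). In epithelial-like cells it reversed with DESeq2 (-0.0047) and over tumours left out (-0.42 to 0.42). Csf3 in whole tumours became 0.042 without the 2 shallowest and ranged from -0.58 to 0.010 over tumours left out. Csf2 by parity became -0.054 without doublets, -0.61 with layout and -0.10 without the 2 shallowest, and ranged from -0.60 to 0.57. Over tumours left out, Csf2rb by phenotype ranged from -3.10 to -2.61 in whole tumours and from -2.10 to -1.63 in macrophage-like cells.

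Csf3r against the neutrophil-like share fell to r = 0.59 without the 2 farthest tumours and was 0.69 in the 7 metaplastic tumours. Csf1r against the macrophage-like share was 0.86 without its 2 farthest tumours, 0.89 in the date-like layout and 0.76 in the metaplastic tumours. In the metaplastic tumours neither relation passed the threshold. Of the receptors and ligands, 7 levels over all cells of a class moved by less than 1 SD with Leiden resolution 2 and with doublets removed, namely Csf1 in fibroblast-like, Csf2 and Csf3 in epithelial-like, Csf1r, Csf2ra and Csf2rb in macrophage-like and Csf3r in neutrophil-like cells. Means over tumours that moved by more at resolution 2 were Csf2rb (3191 to 2868 CPM) and Csf1 (5.43 to 22.6 CPM) in dendritic-like and Csf1r (7.05 to 17.9 CPM) in epithelial-like cells. A block on the title number, which 2 pairs of d16 and p95 tumours share, changed no call by form of HER2 (0 genes with limma voom both ways). The phenotype comparison in neutrophil-like cells was not run, since no solid nodular tumour had 20 such cells. Depth limits Csf3r and epithelial Csf2 most, with p95 tumour 1 and d16 tumour 1 the shallowest.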
